A study of Mus musculus with 6 samples.

Results

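The BCL2 family decides at the mitochondrion whether a cell lives or dies, and its RNA was followed here in memory-phenotype CD8 T cells sorted by the receptor NKG2D. The 10 genes were chosen by name: the pro-survival genes Bcl2, Bcl2l1 (BCL-XL) and Mcl1, the BH3-only death genes Bcl2l11 (BIM), Bid, Bad, Bbc3 (PUMA) and Pmaip1 (NOXA), and the pore-forming effector genes Bax and Bak1. All 10 were among the 23284 genes counted, and all 10 passed the filter on low counts. RNA sequencing was done on lymph node cells of C3H/HeJ mice, an inbred strain in which alopecia areata, an autoimmune hair loss disease, is studied. The labels used here give no disease state, age or sex for the animals. Both sorted populations were CD3+CD8+CD44+CXCR3+, and they were parted into 3 NKG2D+ and 3 NKG2D- libraries. The series description names 3 mice, and libraries with the same number were taken to share a mouse.

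Pro-survival members hold the effectors and the BH3-only proteins in a groove on their surface. BH3-only proteins rise or are switched on under stress or loss of cytokine, fill that groove and set BAX and BAK free to open the outer mitochondrial membrane. T cells lean on BCL2 and MCL1, whose levels depend on interleukin 7 and interleukin 15, while BIM removes effector T cells as a response ends. PUMA and NOXA are classic targets of p53.

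The feature that ties these genes together is the BH3 core, shown here because the survival and death proteins bind each other through it. The coding sequences of the mouse reference transcripts were searched for a leucine codon, any 2 codons, a codon for isoleucine, valine, methionine or alanine, a codon for glycine, serine or alanine, and an aspartate codon. In 9 genes the longest coding sequence with a match held 1 match, and in Pmaip1, whose sequence is not shown, 2. The 6 codons of the core are in capitals, with flanking codons in lower case, each written 5′ to 3′ along the gene.
Bcl2: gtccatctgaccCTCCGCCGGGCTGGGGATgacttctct
Bcl2l1: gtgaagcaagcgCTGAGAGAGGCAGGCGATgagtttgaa
Mcl1: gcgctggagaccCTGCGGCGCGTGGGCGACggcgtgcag
Bcl2l11: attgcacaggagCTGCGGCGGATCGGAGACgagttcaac
Bid: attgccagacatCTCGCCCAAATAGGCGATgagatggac
Bad: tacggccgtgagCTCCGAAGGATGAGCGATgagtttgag
Bbc3: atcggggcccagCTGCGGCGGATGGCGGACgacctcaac
Bax: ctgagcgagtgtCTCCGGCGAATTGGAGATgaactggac
Bak1: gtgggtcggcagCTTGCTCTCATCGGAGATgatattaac
These stretches lie within 1 coding exon each in GRCm38 (GENCODE M21), on the plus strand for Mcl1 at chr3:95659424-95659462, Bcl2l11 at chr2:128147138-128147176, Bad at chr19:6950780-6950818, Bbc3 at chr7:16313761-16313799, and on the minus strand for Bcl2 at chr1:106712575-106712613, Bcl2l1 at chr2:152829697-152829735, Bid at chr6:120897289-120897327, Bax at chr7:45465997-45466035, Bak1 at chr17:27022531-27022569. The leucine's first 2 bases and the aspartate's first 2 bases, 4 positions of 18, were the same in all 9 cores. The search itself fixed the leucine's second base and the aspartate's first 2 bases, so only the leucine's first base could have differed. Identity between pairs of cores includes these fixed positions and is a description. Among the 36 pairs of genes, identity ran from 7 of 18 bases between Bcl2l1 and Bak1 to 15 of 18 between the BH3-only genes Bcl2l11 and Bbc3. The effector gene Bax shared 14 bases with Bcl2l11 and 13 with Bcl2. The reference is of another inbred strain than C3H/HeJ, so these letters are those of the reference and not of the sequenced mice.

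Library totals were 41168816 to 89184611 gene counts. Klrk1, which encodes NKG2D, stood at 312 to 409 CPM (counts scaled to a library of 1000000, with TMM factors) in NKG2D+ and 34.5 to 37.1 CPM in NKG2D- libraries. Among the genes of the sort, Cd3e stood at 403 to 502 CPM. Cd8a stood at 1934 CPM in NKG2D+ library 1 and at 1135 to 1225 CPM in the other 5. Cd44 was separate and higher in NKG2D+, at 430, 177 and 224 CPM against 137, 136 and 133 CPM (log2 fold change 1.03, adjusted p = 0.130), with library 1 again highest. Cd4, which CD8 T cells should lack, stood at 5.38 to 15.2 CPM. Transcripts of B cells were present in all libraries: the sum of 10 B-cell markers reached 598, 386 and 430 CPM in the NKG2D+ libraries numbered 1, 2 and 3, against 109, 278 and 235 CPM in their NKG2D- partners. The groups do not overlap there, all 10 of those markers had a positive log2 fold change, and none was at 0 in any library. Sums of 14 myeloid and dendritic cell markers were 30.8 to 44.2 CPM against 21.2 to 27.6 CPM, with Cd14 and Emr1 at 0 in at least 1 library, and 10 of 13 tested had a positive log2 fold change. Those of 5 plasma cell markers were 40.6 to 84.2 against 35.8 to 38.7 CPM, with Tnfrsf17 at 0 in at least 1 library. Sums of 4 CD4 and regulatory T-cell genes overlapped, at 43.3 to 88.3 against 62.5 to 72.5 CPM, and 1 of the 4 had a positive log2 fold change. Within that list Foxp3, the defining gene of regulatory T cells, was separate and lower in NKG2D+, at 7.27, 2.45 and 4.94 CPM against 20.8, 16.2 and 14.4 CPM (log2 fold change -1.82, adjusted p = 0.0687). The 3 gamma-delta and NKT genes found in the files, of 7 listed, came to 0.916 to 1.67 against 0.529 to 0.624 CPM, with Sox13 at 0 in at least 1 library. B, myeloid and regulatory T cells express BCL2 family genes too, and the part of these cells, or of the difference in Cd44, in the values below was not tested.

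The main comparison asked, gene by gene, whether survival and death genes differed between NKG2D+ and NKG2D- cells. In it 0 of the 10 genes passed edgeR's quasi-likelihood test at an adjusted p under 0.05, where 2.02% of all 12951 genes tested did. At an unadjusted p under 0.05 there was 1 gene, Bbc3, where 21.1% of all genes were. DESeq2 and limma-voom each called 0 of the 10, where they called 11.4% and 0.641% of their genes. Fold changes were small in both directions, 4 positive and 6 negative, from -0.57 for Bbc3 to 0.18 for Pmaip1 on the log2 scale. The median log2 fold change of the 10 was -0.01 (all genes -0.01), and the median absolute log2 fold change was 0.13 (all genes 0.16). In bulk RNA, fewer cells with a transcript and less of it per cell cannot be told apart.

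**Figure D1:**
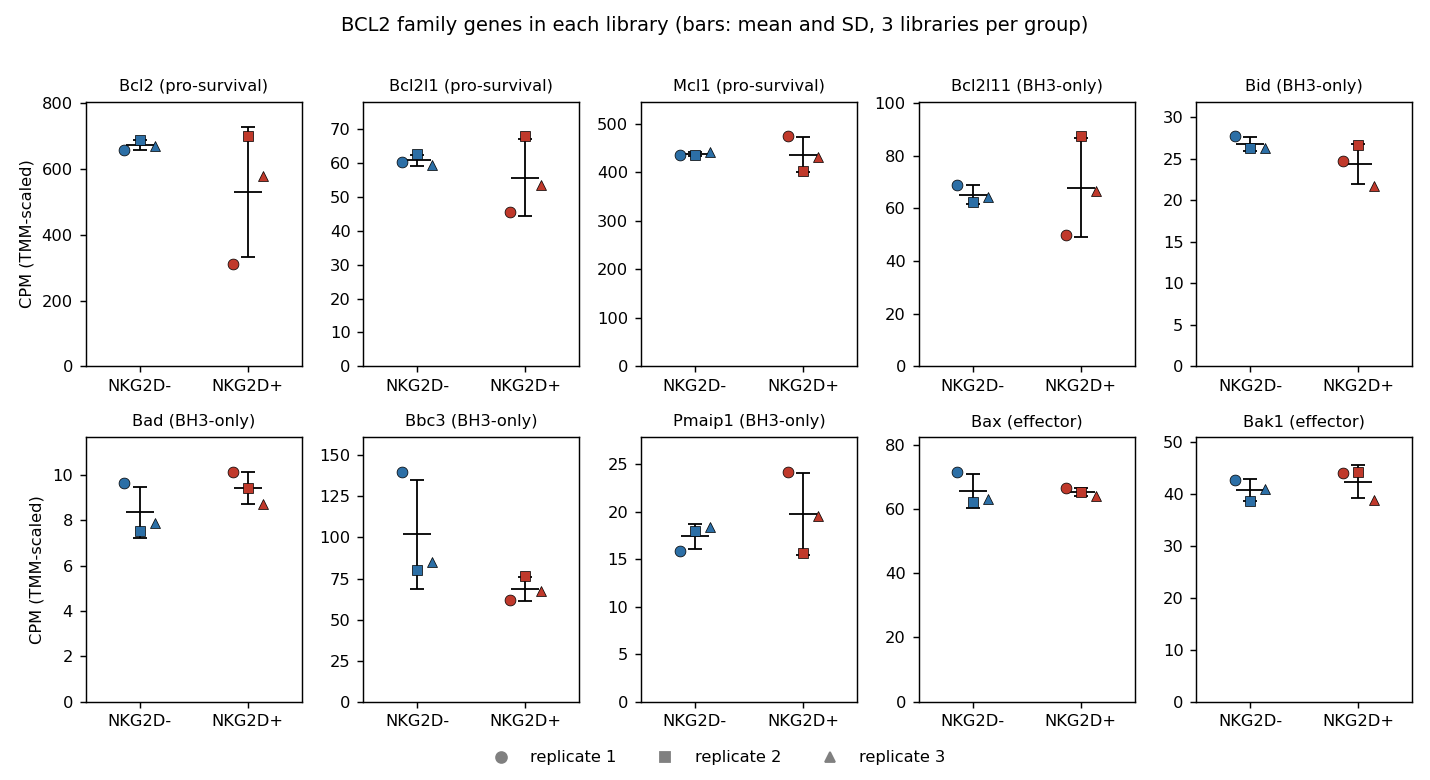
CPM of each BCL2 family gene (vertical axis, from 0, a separate scale for each gene) in the 3 NKG2D- (blue) and 3 NKG2D+ (red) libraries, with the replicate number as the marker shape and bars for mean and SD. Only Bbc3 shows groups that do not overlap, 61.6 to 76.2 CPM in NKG2D+ against 80.3 to 140 CPM in NKG2D-, and Bcl2 spreads from 312 to 700 CPM within NKG2D+.

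Among the pro-survival genes, Bcl2, whose protein guards resting and memory T cells, stood at 312, 700 and 579 CPM in NKG2D+ libraries 1, 2 and 3. The NKG2D- libraries 1, 2 and 3 held 660, 690 and 669 CPM. NKG2D- values were thus nearly level, and NKG2D+ values lay both above and far below them. The means were 530.3 ± 198 and 673 ± 15.4 CPM (SD, n = 3 each), a difference of -0.34 on the log2 scale (SE 0.27, 95% interval -0.98 to 0.29, adjusted p = 0.519 by edgeR). NKG2D+ library 1 set much of this value: without it the log2 fold change of Bcl2 was -0.07 (adjusted p = 0.747), against -0.59 (adjusted p = 0.196) without NKG2D+ library 2. The library with the low Bcl2 also had the highest sum of B-cell markers and the highest Cd8a and Cd44. It was at 1 end of its group for 83.0% of all genes tested, and a link to Bcl2 was not tested.

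Mcl1 encodes a short-lived survival protein that T cells need at every stage. It stood at 474, 402 and 432 CPM in NKG2D+ and 435, 435 and 442 CPM in NKG2D- libraries 1, 2 and 3. The NKG2D- values lay inside the NKG2D+ range, and NKG2D+ library 1, lowest of its group for Bcl2, was highest for Mcl1. The log2 fold change was -0.01 (SE 0.08), with a 95% interval of -0.19 to 0.18, that is from 0.876 to 1.13 times the NKG2D- level (adjusted p = 0.975).

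Bcl2l1, whose long product BCL-XL is induced on T-cell activation, stood at 45.5, 67.9 and 53.7 CPM in NKG2D+ and 60.4, 62.7 and 59.4 CPM in NKG2D- libraries. Its NKG2D+ libraries had the same order as for Bcl2, 1 below 3 below 2. The log2 fold change was -0.13 (SE 0.14, 95% interval -0.46 to 0.20, adjusted p = 0.661), and it was 0.0012 without NKG2D+ library 1. Gene counts do not separate the long survival isoform of Bcl2l1 from its short death isoform.

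Bbc3, which encodes PUMA, a BH3-only protein that binds every pro-survival member, had the lowest p of the 10. It stood at 61.6, 76.2 and 67.6 CPM in NKG2D+ and at 140, 80.3 and 85.3 CPM in NKG2D- libraries 1, 2 and 3. Every NKG2D+ library lay below every NKG2D- library, which makes Bbc3 the single member of 10 whose groups do not overlap, where 29.1% of all genes tested have separate groups. The means were 68.5 ± 7.34 and 102 ± 33.1 CPM (SD, n = 3 each), or -0.57 on the log2 scale (SE 0.22, 95% interval -1.09 to -0.05). By edgeR the unadjusted p was 0.0352 and the adjusted p 0.202. The same-numbered pairs differed by -1.18, -0.08 and -0.34 on the log2 scale, and separate groups fix their shared sign. NKG2D- library 1 carried much of the difference, since without it the log2 fold change of Bbc3 was -0.28 (adjusted p = 0.329), and without both libraries numbered 1 it was -0.20 (adjusted p = 0.254). That library was the shallowest and had the lowest sum of B-cell markers, and a link of either to Bbc3 was not tested.

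Bcl2l11 encodes BIM, the BH3-only protein that ends T-cell responses. It stood at 49.9, 87.4 and 66.4 CPM in NKG2D+ and 69.1, 62.4 and 64.4 CPM in NKG2D- libraries. The NKG2D+ order was again 1 below 3 below 2, and the NKG2D- values lay inside it. Its log2 fold change was 0.06 (SE 0.19, 95% interval -0.39 to 0.50, adjusted p = 0.896), at 0.24 without NKG2D+ library 1 and -0.17 without NKG2D+ library 2, so no direction can be given.

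Pmaip1, which encodes NOXA, a partner that drives MCL1 to degradation, stood at 24.2, 15.6 and 19.5 CPM in NKG2D+ and 15.9, 17.95 and 18.4 CPM in NKG2D- libraries. Here NKG2D+ library 1 was the highest of all 6 and library 2 the lowest. The log2 fold change was 0.18 (SE 0.16, 95% interval -0.20 to 0.57, adjusted p = 0.577), and 0.02 without NKG2D+ library 1.

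Bad, a BH3-only protein held in check by phosphorylation downstream of growth factors, stood at 8.73 to 10.1 CPM in NKG2D+ and 7.54 to 9.62 CPM in NKG2D- libraries. It was higher in NKG2D+ in 3 of 3 same-numbered pairs, by 0.08, 0.32 and 0.15 on the log2 scale, yet the groups overlapped (log2 fold change 0.18, SE 0.14, adjusted p = 0.520). The share of all genes higher in 3 of 3 pairs was not counted. The log2 fold change of Bad was 0.29 without NKG2D- library 1 and 0.11 without NKG2D- library 2. Bid, which caspase-8 cleaves to link death receptors to mitochondria, stood at 21.8 to 26.6 CPM in NKG2D+ and 26.2 to 27.7 CPM in NKG2D- libraries (log2 fold change -0.13, SE 0.10, adjusted p = 0.477). NKG2D+ library 2 was the one that brought the Bid groups into overlap, at 26.6 CPM. The log2 fold change of Bid was -0.20 without that library and -0.06 without NKG2D+ library 3.

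The effectors were close to level between the populations. Bax stood at 66.7, 65.3 and 63.9 CPM in NKG2D+ and 71.6, 62.0 and 63.0 CPM in NKG2D- libraries, with a log2 fold change of -0.01 (SE 0.08, 95% interval -0.19 to 0.18, adjusted p = 0.975 by edgeR). Bak1 stood at 44.2, 44.3 and 38.9 CPM against 42.8, 38.6 and 41.1 CPM, with a log2 fold change of 0.06 (SE 0.08, 95% interval -0.14 to 0.25, adjusted p = 0.751 by edgeR). For both genes the groups lay on top of each other.

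**Figure D2:**
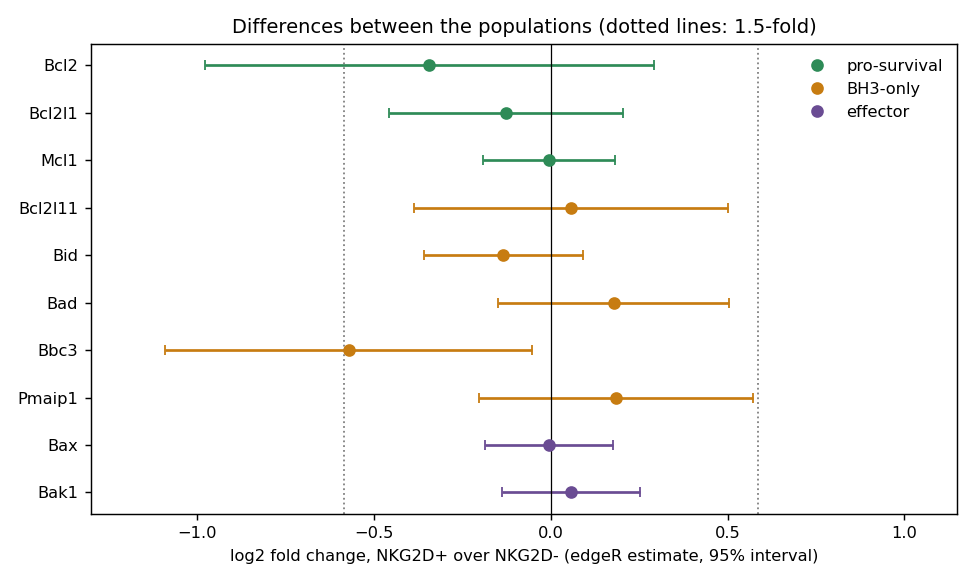
Log2 fold change of each gene, NKG2D+ over NKG2D- (horizontal axis), from the edgeR fit with its 95% interval (3 libraries per group), coloured by role, with dotted lines at 1.5-fold. The intervals of 8 of the 10 genes lie inside the dotted lines, and those of Bcl2 and Bbc3 reach past the lower one.

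The intervals say how large a difference these libraries leave room for. They lay within 1.5-fold either way for 8 of 10 genes and within 2-fold for 9 of 10. That of Pmaip1 reached 1.49 times the NKG2D- level, just under the first limit. The share of all genes with such intervals was not counted, so the counts are no trait of the family. These intervals come from the main fit, which takes the same dispersion for both groups and leaves out the pairing. The interval of Bcl2 went down to 0.508 and that of Bbc3 to 0.470 times the NKG2D- level. On simulated counts for the same comparison (12835 genes), the test found 40% of 50 genes changed 1.5-fold and 70% of 50 changed 2-fold. The simulated spread followed the trend over expression level, was the same in both groups and held no mouse effect. These shares are therefore not the power for a given member, such as Bcl2, whose spread differed between the groups.

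Variation between libraries was wider on the NKG2D+ side for 7 of the 10 genes, where 66.4% of all genes had the wider SD of log2 CPM there. The coefficient of variation of Bcl2 was 37.4% in NKG2D+ against 2.29% in NKG2D-, that of Bcl2l11 27.7% against 5.25%, and that of Mcl1 8.32% against 0.945%. Bad, Bbc3 and Bax had the wider spread in NKG2D-, where NKG2D- library 1 was the highest for each. NKG2D+ library 1 was the lowest of its group for 4 genes (Bcl2, Bcl2l1, Bcl2l11 and Bbc3) and the highest for another 4 (Mcl1, Pmaip1, Bad and Bax). It was at 1 end of its group for 83.0% of all genes tested, so 8 of 10 is close to that share.

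A survival gene was set against a death gene within each library for 6 pairs, as a log2 ratio of CPM, in which library scaling cancels. The ratio of Bcl2 to Bcl2l11, the BCL2 to BIM pair that T-cell survival is often read by, came to 2.65, 3.00 and 3.12 in the NKG2D+ libraries numbered 1, 2 and 3, against 3.25, 3.47 and 3.38 in the NKG2D- libraries. Each NKG2D+ value lay below each NKG2D- value, and this held for NKG2D+ libraries 2 and 3 as for library 1. The means were 2.92 ± 0.25 and 3.37 ± 0.11 (SD, n = 3 each), a difference of -0.44. This was 1 of 6 ratios without overlap, where 31.9% of all pairs of tested genes have log2 ratios without overlap, and no test was made over chosen genes. In the ratio of Mcl1 to Bcl2l11 the NKG2D+ libraries ran from 2.20 to 3.25 around NKG2D- values of 2.66 to 2.80. Ratios of Mcl1 to Pmaip1, Bcl2l1 to Bad, Bcl2 to Bax and Mcl1 to Bak1 also overlapped, with differences of -0.17, -0.33, -0.42 and -0.06.

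**Figure D3:**
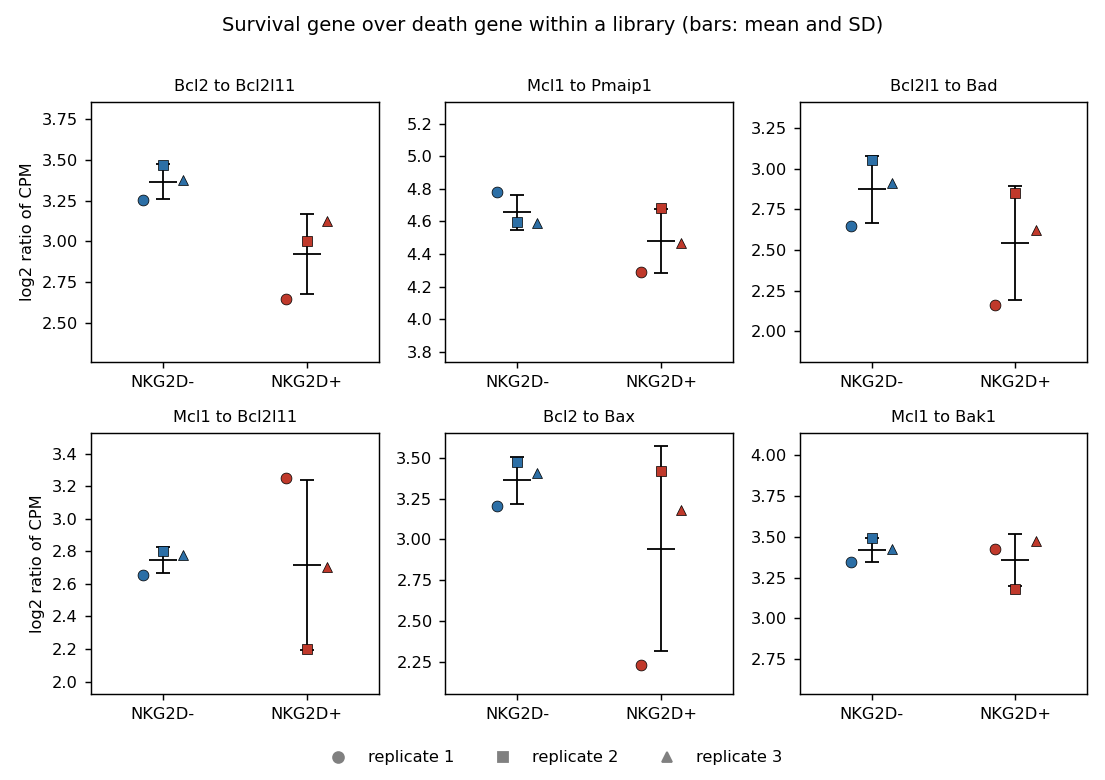
Log2 ratio of the CPM of a survival gene to that of a death gene (vertical axis, each panel spanning the same range of log2 units and not starting at 0) in each library, NKG2D- in blue and NKG2D+ in red, with bars for mean and SD over 3 libraries. Bcl2 to Bcl2l11 is the panel without overlap, 2.65 to 3.12 in NKG2D+ against 3.25 to 3.47 in NKG2D-.

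Levels can be compared between genes only per length, here as mean CPM per kilobase of the longest coding transcript in GENCODE M21, which need not be the annotation behind the counts. In NKG2D- cells the order was Mcl1 at 128, Bcl2 at 93.6, Bax at 75.6, Bbc3 at 56.1, Bcl2l1 at 23.7, Bak1 at 17.1, Bcl2l11 at 13.0, Bid at 12.2, Pmaip1 at 6.38 and Bad at 5.44 CPM per kilobase. In NKG2D+ cells the order was the same but for Bax at 75.3 and Bcl2 at 73.8 CPM per kilobase, whose libraries overlapped. Neighbours whose libraries overlapped in both populations were Bcl2l11 with Bid and Pmaip1 with Bad, and in NKG2D- cells also Bax with Bbc3. In NKG2D+ cells Bcl2l1 overlapped with Bak1 and Bak1 with Bcl2l11. With the joined exons of all transcripts as the length, Mcl1 stayed at 128 in NKG2D- cells and 3 pairs of neighbours changed places: Bcl2 at 73.5 lay below Bax, Bcl2l1 at 15.6 below Bak1 at 17.1, and Bcl2l11 at 9.47 below Bid at 12.2 CPM per kilobase. In NKG2D+ cells the same length put Bcl2 at 57.9, Bcl2l1 at 14.3 below Bak1 at 17.8, and Bcl2l11 at 9.85 below Bid at 11.1 CPM per kilobase.

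Promoters of these genes were read for letters bound by regulators of the family, since FOXO factors are known to drive Bcl2l11 and Bbc3. In RefSeq (GRCm38.p6), 15 promoter windows of 250 bases before to 50 after a start matched 9 of the 10 genes. Both strands were searched for the FOXO letters GTAAACA, the E-box CACGTG that MYC binds, and the STAT letters TTCNNNGAA. The FOXO letters were in 2 of the 15 windows, 1 of Bcl2l11 and 1 of Bbc3, where 3.65% of 32851 windows of that length hold them. The E-box was in 2 windows, of Bbc3 and Bax (7.15% of all windows), and the STAT letters in 0 (8.3% of all windows). Both windows with the FOXO letters are printed on the gene's strand, with the match in capitals, at chr2:128125788-128126087 and chr7:16310011-16310310, both on the plus strand. A match is a description of letters, not a bound site.
Bcl2l11: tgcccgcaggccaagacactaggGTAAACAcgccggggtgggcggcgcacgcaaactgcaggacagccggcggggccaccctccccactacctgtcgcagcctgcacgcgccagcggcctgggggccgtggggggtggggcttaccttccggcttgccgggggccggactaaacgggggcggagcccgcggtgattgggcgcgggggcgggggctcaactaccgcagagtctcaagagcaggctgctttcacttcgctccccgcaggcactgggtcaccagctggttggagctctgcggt
Bbc3: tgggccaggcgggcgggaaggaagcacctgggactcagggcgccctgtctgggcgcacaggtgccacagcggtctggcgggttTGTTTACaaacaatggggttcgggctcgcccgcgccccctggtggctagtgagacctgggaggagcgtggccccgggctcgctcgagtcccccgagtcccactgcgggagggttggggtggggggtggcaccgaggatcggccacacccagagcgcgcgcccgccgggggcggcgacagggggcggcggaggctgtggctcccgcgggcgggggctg
Foxo1, the main FOXO gene of resting T cells, stood at 183, 288 and 263 CPM in NKG2D+ and 286, 320 and 343 CPM in NKG2D- libraries (log2 fold change -0.37, SE 0.17, adjusted p = 0.268). Its NKG2D+ libraries had the order 1 below 3 below 2, as for Bcl2, Bcl2l1, Bcl2l11 and Bbc3. Over all genes tested, NKG2D+ library 1 was at 1 end of its group for 83.0% and library 2 for 73.5%. The share of genes with this order was not counted, and a link to Foxo1 was not tested. Foxo3 stood at 32.3 to 38.6 against 34.1 to 35.4 CPM (adjusted p = 0.773).

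The genes whose pattern over the 6 libraries was most like that of Bbc3 were Acp5, Pik3ip1 and Fam101b. Likeness was the root mean square difference of centred log2 CPM over the 6 libraries, 0.116, 0.122 and 0.150 for these 3 out of 9451 genes with a mean of at least 5 CPM. Acp5, a phosphatase gene, stood at 113 to 130 CPM in NKG2D+ and 162 to 235 CPM in NKG2D- libraries. Pik3ip1, an inhibitor of PI3 kinase, differed by -0.55 on the log2 scale and Fam101b by -0.44. These 3 were picked for their likeness to Bbc3, so their lower NKG2D+ values were fixed by that choice and are a description.

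Around the family, 81 genes of the pathway were listed, all in the files, and 75 passed the filter. By edgeR 0 of the 75 were higher and 1 was lower in NKG2D+ cells, where 1.65% and 0.363% of all genes were. At an unadjusted p under 0.05 there were 15 higher and 7 lower, where 12.5% and 8.62% of all genes were. DESeq2 called 13 of the 75 and limma-voom 1, where they called 11.4% and 0.641% of the genes they tested. The gene that fell was Il4ra, the interleukin 4 receptor chain, at 250, 286 and 277 CPM in NKG2D+ and 398, 405 and 401 CPM in NKG2D- libraries. Its groups were far apart (log2 fold change -0.57, SE 0.07, adjusted p = 0.0220), but the adjusted p was 0.0554 with the replicate number as a block. It was 0.105 without NKG2D+ library 3 and 0.119, 0.117 and 0.154 without NKG2D- libraries 1, 2 and 3, at log2 fold changes of -0.56 to -0.58, and 0.0524 and 0.554 without both libraries numbered 2 or 3.

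**Figure D4:**
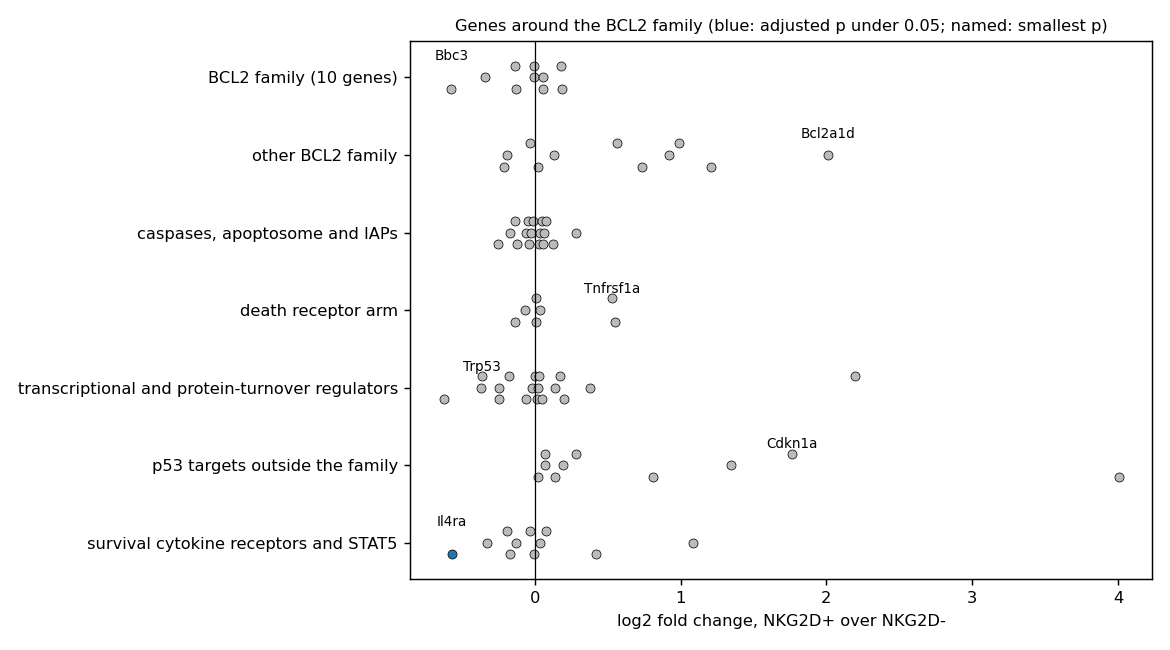
Log2 fold change, NKG2D+ over NKG2D- (horizontal axis), of the 10 BCL2 family genes and of the tested genes reported in 6 lists around them (rows), with the gene of lowest p named in each row but the caspase row, and genes past an adjusted p of 0.05 in blue. The family sits between -0.57 and 0.18, Il4ra is the single blue point, and the 10 tested p53 targets lie above 0.

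A further list held other BCL2 family genes together with Bnip3 and Bnip3l, whose products are more distant relatives. Of 11 tested, 0 passed, 5 had an unadjusted p under 0.05, all higher in NKG2D+ (all genes 12.5%), and the groups were separate and higher for those 5 (all genes 15.1%). Bcl2l12 was separate and lower (all genes 14.1%), at a mean of 8.7 CPM in NKG2D+ against 10.1 CPM in NKG2D-. The median log2 fold change of the 11 was 0.57 (all genes -0.01). Bcl2a1d, a copy of the inducible survival gene A1, stood at 3.51, 0.726 and 2.02 CPM in NKG2D+ and 0.428, 0.575 and 0.530 CPM in NKG2D- libraries (log2 fold change 2.01, SE 0.56, adjusted p = 0.111). DESeq2 called it (adjusted p = 0.00786), as did edgeR without NKG2D+ library 2 (0.00844) and without both libraries numbered 2 (0.0444). Bcl2a1b stood at 15.8, 6.84 and 8.60 CPM against 5.995, 5.44 and 5.04 CPM. The A1 copies are nearly identical in sequence, so reads may be lost or shared among them. The remaining 3 were Bnip3, which marks mitochondria for removal, with a log2 fold change of 0.99, and the BH3-only genes Bmf with 1.21 and Bik with 0.73. These 3 were named after their values were seen. Bmf was near the floor in NKG2D- library 1, at 10 counts or 0.252 CPM. A1 genes are also expressed in B and myeloid cells, whose marker sums were higher in NKG2D+ libraries as well. NKG2D+ library 1 was the highest for these 2 A1 genes, for those sums and for Cd44. Among the NKG2D- libraries, library 1 had the lowest B-cell sum and the lowest Bcl2a1d but the highest Bcl2a1b. A link of the A1 genes to other cells or to Cd44 was not tested.

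Of 18 caspase, apoptosome and IAP genes, 0 passed. The median log2 fold change of the 18 was 0.01. Of 7 genes of the death receptor arm, 0 passed, and Tnfrsf1a, the main TNF receptor, had the lowest p, at 40.4 to 56.0 CPM in NKG2D+ and 32.1 to 33.0 CPM in NKG2D- libraries (log2 fold change 0.53, adjusted p = 0.0841). DESeq2 called Tnfrsf1a (adjusted p = 0.00570), and edgeR did without NKG2D+ library 1 (0.0404) and without NKG2D+ library 2 (0.0206).

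Upstream of Bbc3 and Pmaip1, Trp53, which encodes p53, stood at 146, 184 and 177 CPM in NKG2D+ and 237, 200 and 215 CPM in NKG2D- libraries. Its groups were separate and lower in NKG2D+ (log2 fold change -0.36, SE 0.11, adjusted p = 0.127 by edgeR and 0.0362 by DESeq2). The groups of Bbc3 were separate and lower too (all genes 14.1%), while Pmaip1 and Bax overlapped. A link of Trp53 RNA to Bbc3 was not tested, and p53 protein was not measured. Of 10 tested p53 targets outside the family, 0 passed, all 10 had a positive log2 fold change (all genes 47.2%), and 6 were separate and higher in NKG2D+ (all genes 15.1%). The median log2 fold change of the 10 was 0.24 (all genes -0.01). Mdm2 at 0.07 and Aen at 0.02 were near 0, with overlapping groups. Perp, which was separate, had only 2, 4 and 2 counts in the NKG2D- libraries. Mdm2, Aen and Perp were named after their values were seen. The lowest p among the 10 was that of Cdkn1a, the gene of the cell-cycle inhibitor p21, at 4.27, 2.09 and 6.10 CPM against 1.21, 1.13 and 1.33 CPM (log2 fold change 1.76, SE 0.39, adjusted p = 0.0730). DESeq2 called Cdkn1a (adjusted p = 0.000446), and edgeR did without NKG2D+ library 2 (0.00478) and without both libraries numbered 2 (0.0326). Among the 18 regulators, 0 passed, 4 had an unadjusted p under 0.05 and were lower and 1 was higher (all genes 8.62% and 12.5%). Myc was 1 of the 4, at 85.3 to 150 CPM against 164 to 221 CPM (log2 fold change -0.62, adjusted p = 0.174), and was named for its E-box. Of the 11 receptor and STAT5 genes, Il7r, the interleukin 7 receptor that sustains Bcl2, stood at 815 to 1305 CPM in NKG2D+ and 655 to 917 CPM in NKG2D- libraries (adjusted p = 0.305), named after its values were seen, as were Foxo1 and Foxo3.

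**Figure D5:**
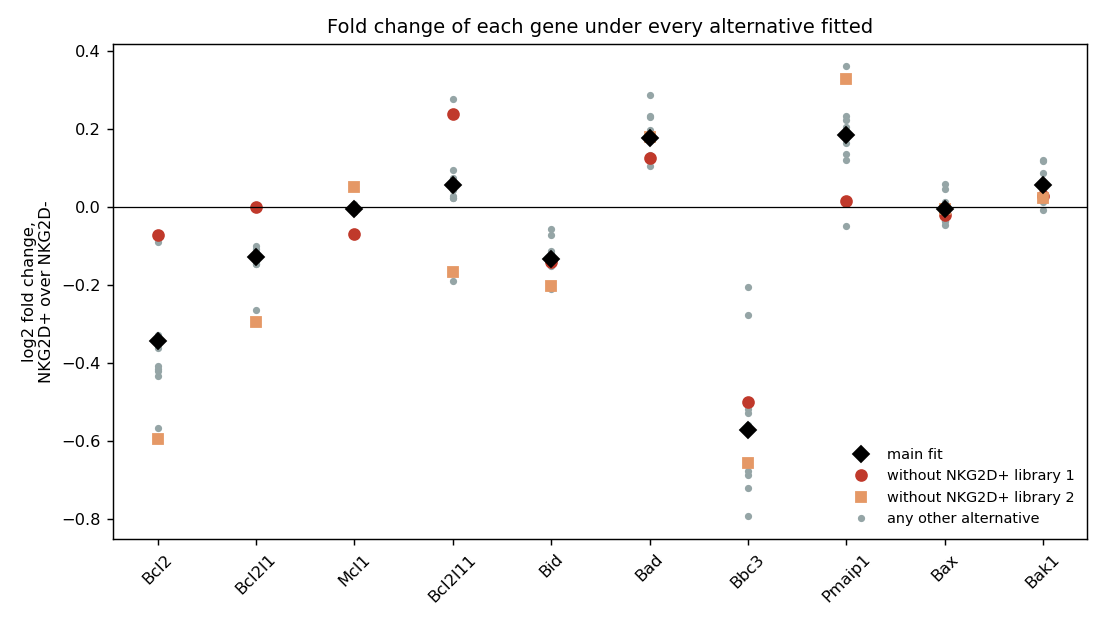
Log2 fold change of each BCL2 family gene, NKG2D+ over NKG2D- (vertical axis), in the main fit (diamonds) and under each of 14 alternatives, with those that leave out NKG2D+ library 1 or 2 marked. Bbc3, Bcl2 and Bid stay below 0 and Bad above 0 throughout, while Bcl2l11 moves from 0.24 to -0.17 with the library left out.

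Reads of overlapping genes that were themselves counted limit 4 members. Bcl2 and Bid, and again Bcl2l1 and Bad, overlap reference genes that were not among those counted. Whether reads of those genes were added to the member was not tested. In the reference, Bcl2l1 overlaps Cox4i2, Bcl2l11 overlaps Acoxl, Bad overlaps Gpr137 and Bak1 overlaps Ggnbp1, and the strand setting of the counting is not known. Cox4i2 and Acoxl stood at 0.0252 to 0.831 CPM and Ggnbp1 at 1.03 to 2.85 CPM, far below the member they overlap, but Gpr137 stood at 11.5 to 14.2 CPM, above Bad.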

How the data were processed

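The authors deposited raw read counts by gene symbol, in 1 file for each library. CASAVA 1.8.2, TopHat2 2.0.4 and mm9 are named in the submitters' processing notes, while no source used here names the counting program, its annotation or its strand setting. Summary counts that name no gene were left out. Of the total of gene and summary counts, 14.0% to 15.9% were outside genes, 0.715% to 0.836% ambiguous and 19.7% to 26.2% aligned to several places. Unaligned reads stood at 0 in every library, so these are not shares of all reads sequenced. Whether a read aligned to several places was counted more than once is not known.

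Genes were kept by filterByExpr (minimum count 10, minimum total 15), and 12951 entered edgeR 4.0.16 (R 4.3.3; TMM, robust quasi-likelihood fit and F-test, group as the only term). Adjusted p-values (Benjamini-Hochberg, all tested genes) were called under 0.05. CPM used TMM-scaled library sizes, and log2 values for spread and likeness a pseudocount of 0.5 CPM. Standard errors are the log2 fold change over the square root of F, and 95% intervals use the fit's degrees of freedom. The test was checked on simulated counts. Alternatives were the replicate number as a block, DESeq2 1.42.0 size factors and test, limma 3.58.1 (voom), no filter and leaving out libraries.

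The members and lists were chosen with earlier results of these data known. Named genes are the 10 members, the called genes of each list (up to 4, or else the gene of lowest p) and the 3 genes most like the member of lowest p. The rule also takes 1 gene that is not reported here. Libraries with the same number deviated together from their group means (r = 0.25, 0.20 and 0.38 across genes, which are not independent replicates) and, since the series names 3 mice, were taken as pairs. They also share a lane tag in the file names, which cannot be told apart from the mouse. P-values of the main fit measure the spread between libraries within a group, in which mouse and lane are held together. That fit leaves out the pairing, which only the fit with the replicate number as a block uses.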

Additional observations from a re-analysis of the deposited data

How the results depend on the processing

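None of the 10 family genes passed under any of the 14 alternatives (0 of 140 fits), where the lowest adjusted p was 0.0700, for Bbc3 by DESeq2. With the replicate number as a block, 0 of the 10 passed, with an adjusted p of 0.238 for Bbc3. Bcl2, Bid, Bad and Bbc3 kept their sign in all 14, and with libraries left out Bbc3 ran from -0.79 to -0.20, Bcl2 from -0.59 to -0.072, Bid from -0.21 to -0.056 and Bad from 0.11 to 0.29. Over the 14 alternatives adjusted p-values ran from 0.0700 to 0.673 for Bbc3, 0.196 to 0.854 for Bcl2, 0.321 to 0.979 for Bcl2l11, 0.00786 to 0.664 for Bcl2a1d, 0.00570 to 0.614 for Tnfrsf1a, 0.0362 to 0.668 for Trp53, 0.000446 to 0.614 for Cdkn1a and 5.53e-10 to 0.554 for Il4ra. The other 6 family genes changed sign in at least 1 alternative, and all of their fits were uncalled. With libraries left out, log2 fold changes ran from -0.29 to 0.0012 for Bcl2l1, -0.074 to 0.054 for Mcl1, -0.19 to 0.28 for Bcl2l11, -0.048 to 0.36 for Pmaip1, -0.047 to 0.059 for Bax and -0.0069 to 0.12 for Bak1, and limma-voom gave 0.0018 for Bax. Of the 75 tested pathway genes, 1 passed in the main fit, 0 with the replicate block, 13 by DESeq2 (9 higher, 4 lower), and 0 to 11 with libraries left out (11 without NKG2D+ library 2). The cause was not tested. The block ended the call of Il4ra alone. Over all genes, calls went from 261 to 68 with the block, 1442 by DESeq2, 83 by limma-voom and 0 to 1312 with libraries left out (0 without both libraries numbered 3, with 971 at an unadjusted p under 0.05). The lowest count of a family gene in any library was 382 (Bad).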
